A study of Homo sapiens with 12 samples.

Results

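The 10 genes described here are the JUN family (JUN, JUNB, JUND), the FOS family (FOS, FOSB, FOSL1, FOSL2) and the immediate early genes EGR1, DUSP1 and IER5. They were chosen by gene name from a table of 32010 genes, and all 10 were found and passed the filter on low counts. RNA levels were measured in 4 groups of 3 polyadenylated RNA libraries from HEK293 Flp-In cells, which descend from human embryonic kidney and carry a recombination site where a transgene can be placed. The ΔE8 group received an siRNA against TAF5 and expressed siRNA-resistant TAF5 that lacks exon 8. The FL group received the same siRNA and expressed siRNA-resistant full-length TAF5. The siTAF5 group received that siRNA without a transgene being named, and siNT cells were given an siRNA with no target. TAF5 belongs to TFIID, which recognises core promoters and helps to bring RNA polymerase II there. Transfection was followed after 24 h by 48 h of doxycycline, and the treatment label reads siRNA and doxycycline for all 12 libraries. The doxycycline dose differed between ΔE8 and FL and is not printed, since its exponent is unclear in the labels. The labels state neither the line in which siNT and siTAF5 cells were grown nor whether the rescue lines were single clones. A single siRNA targeted TAF5, so anything else it hits is shared by ΔE8, FL and siTAF5. The medium held serum, and no acute stimulus is named.

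Immediate early genes are transcribed within minutes of a growth factor or stress signal, without new protein synthesis. JUN and FOS proteins join through leucine zippers to form the AP-1 transcription factor. JUN proteins pair with themselves or with FOS proteins, while FOS proteins need a JUN partner. EGR1 is a zinc finger transcription factor induced by the ERK kinase pathway, DUSP1 is a nuclear phosphatase that switches off MAP kinases, and IER5 is an immediate early protein that acts on the heat shock factor HSF1. The serum response factor binds CArG boxes upstream of FOS and EGR1.

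Library totals ran from 41799164 to 62452619 estimated counts. TAF5 stood at 88 ± 0.757 CPM (counts scaled to library size, mean ± SD, n = 3 here and below) in ΔE8, 105 ± 2.44 in FL, 6.72 ± 0.612 in siTAF5 and 40 ± 0.698 in siNT. These CPM were not adjusted for transcript length. The ΔE8 form lacks exon 8, and the length of the transgene transcripts is not known. TAF5 levels are therefore not strictly comparable between groups with different TAF5 forms. All 9 markers of the HEK293 line were detected, from NEFH at 0.184 to 0.665 CPM to VIM at 1070 to 1550 CPM, and they summed to 2300 to 2360 CPM in ΔE8, 2020 to 2080 in FL, 2150 to 2230 in siTAF5 and 1950 to 2020 in siNT. Of 7 fibroblast markers, 5 (COL1A2, DCN, LUM, PDGFRB, THY1) stayed below 0.5 CPM in all 12 libraries, as did KRT5 and KRT14 of 6 keratin-rich epithelial markers and PTPRC, CD3E, LYZ and HBB among 7 blood cell markers. The fibroblast markers summed to 8.34 to 8.91 CPM in ΔE8, 8.82 to 10.3 in FL, 10.6 to 11.3 in siTAF5 and 17.1 to 17.6 in siNT. The epithelial markers summed to 73.6 to 74.8 CPM in ΔE8, 92.6 to 97.6 in FL, 73.7 to 78.4 in siTAF5 and 99.6 to 103 in siNT, and the blood cell markers to 14.3 to 15.4, 17.6 to 18.6, 12.9 to 13.2 and 18.8 to 20.8 in the same groups. The heat shock list, kept because immediate early and heat shock genes both respond to handling, summed to 9080 to 9410 CPM in ΔE8, 7460 to 8070 in FL, 8100 to 8210 in siTAF5 and 6270 to 6470 in siNT. The part of these lists in the results below was not tested.

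Promoter sequence is shown for the 5 genes that the results turn on: JUNB and JUND, which had the widest range of group means, EGR1 and FOSB, which rose in ΔE8 over siTAF5, and DUSP1, which fell in FL over siTAF5. Each line holds the 140 bases before the RefSeq start of the gene (GRCh38.p14), 5′ to 3′ on the gene's strand. Capitals mark the TATA box TATAAA, the CCAAT box, the GC box GGGCGG, the cyclic AMP response element TGACGTCA and the CArG box, each searched on both strands. In DUSP1 the cyclic AMP response element directly adjoins the GC box that follows it, and that of JUND lies upstream of the bases shown.

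JUNB, chr19:12791346-12791485, plus strand: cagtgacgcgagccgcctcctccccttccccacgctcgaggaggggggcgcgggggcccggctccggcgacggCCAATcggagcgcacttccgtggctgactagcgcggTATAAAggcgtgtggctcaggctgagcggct
JUND, chr19:18281623-18281762, minus strand: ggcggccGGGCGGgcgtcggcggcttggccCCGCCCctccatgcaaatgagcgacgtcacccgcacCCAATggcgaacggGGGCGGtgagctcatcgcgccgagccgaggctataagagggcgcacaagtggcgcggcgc
EGR1, chr5:138465339-138465478, plus strand: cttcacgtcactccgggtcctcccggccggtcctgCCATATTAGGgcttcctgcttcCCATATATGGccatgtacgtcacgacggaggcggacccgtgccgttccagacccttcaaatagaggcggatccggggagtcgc
FOSB, chr19:45467856-45467995, plus strand: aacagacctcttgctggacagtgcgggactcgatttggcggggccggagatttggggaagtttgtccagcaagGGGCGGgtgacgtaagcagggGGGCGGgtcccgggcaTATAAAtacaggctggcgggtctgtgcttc
DUSP1, chr5:172771196-172771335, minus strand: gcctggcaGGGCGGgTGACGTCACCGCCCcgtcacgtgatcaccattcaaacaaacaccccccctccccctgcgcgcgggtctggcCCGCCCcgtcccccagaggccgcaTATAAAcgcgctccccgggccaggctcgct

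RefSeq windows were found for 9 of the 10 genes, all but FOSL1, and the 250 bases before each RefSeq start were searched. The FOSL2 window (28392608 to 28392857) lies inside the annotated gene, which starts at 28392448. The JUN window (58784048 to 58784297) lies inside the exon that GENCODE gives JUN, 58780788 to 58784327. The FOS window (75278578 to 75278827) runs past the GENCODE start of FOS, 75278774. Which start these cells used was not tested, so sites in these windows may lie downstream of it. TATAAA lay in the windows of DUSP1, FOS, JUNB and FOSB, from 33 to 25 bases before the start, and in 10.7% of 35116 human promoter windows. Only this exact sequence was searched. The IER5 window holds the near match tatataagg and that of JUND ctataagag, at a like distance from the start. The CArG box lay in EGR1, at 105 and at 83 bases before the start, and in 1.16% of all windows. A CArG box of FOS further upstream than the 250 bases searched would be missed. TGACGTCA lay in DUSP1 and JUND, against 1.65% of windows. CCAAT lay in JUN, IER5, JUNB and JUND, against 32% of windows, and GGGCGG in JUN, FOSL2, DUSP1, FOS, JUND and FOSB, against 42.6%. The AP-1 motif TGANTCA and the EGR1 motif GCGGGGGCG were in none of the 9 windows, against 6.57% and 4.72% of windows. Variant sites were not searched, so AP-1 sites of another form would be missed. The JUN window holds tgacatca, which TGANTCA does not match.

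JUN, JUNB and IER5 have no intron in the GENCODE release 29 annotation, and JUND has none in its merged exons. FOS, FOSB, FOSL1, FOSL2, EGR1 and DUSP1 are spliced. Per kb of merged exon length, JUN had the highest level (153 ± 3.8 CPM per kb in ΔE8, 121 ± 3.38 in FL, 172 ± 3.39 in siTAF5, 131 ± 4.6 in siNT), followed by JUND (77.5 ± 0.813, 49.8 ± 4.35, 101 ± 5.75 and 66.1 ± 7.57 in the same groups). JUN spans more bases in the deposited table than its 3540 in GENCODE release 29, so its level per length and its place above JUND are uncertain. DUSP1, JUNB and IER5 came next, with levels over the 12 libraries of 19 to 27.6, 12.8 to 30.8 and 14.4 to 20.5 CPM per kb, and the order of these 3 was not the same in every group. EGR1 (4.69 to 9.1), FOSL1 (2.87 to 6.24) and FOSL2 (3.7 to 4.26) were lower. The range of FOSL1 overlapped both others, and EGR1 lay above FOSL2 throughout. FOS (0.727 to 1.16 CPM per kb) and FOSB (0.449 to 0.85) were lowest, and their ranges overlapped too.

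**Figure D1:**
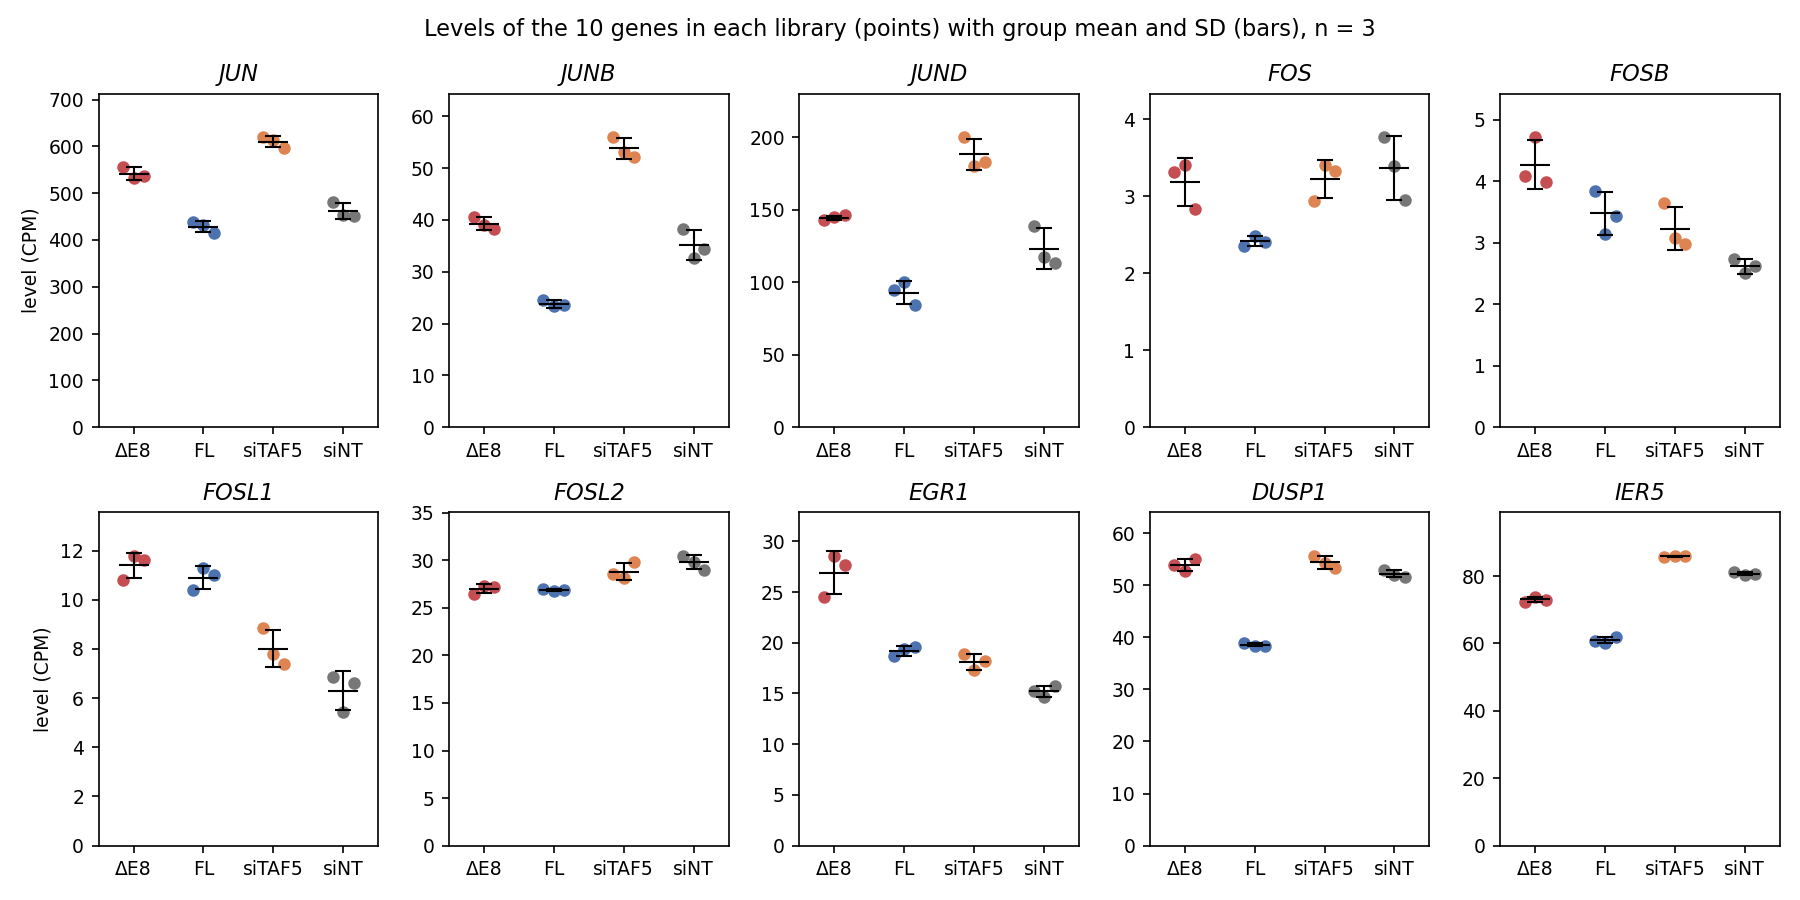
Level (CPM) of each of the 10 genes in the 3 libraries of ΔE8, FL, siTAF5 and siNT; points are libraries, bars the group mean and SD, and each axis starts at 0. The JUN genes are highest in siTAF5 and lowest in FL, FOSL1 is high in both transgene groups, and EGR1 is highest in ΔE8.

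JUN, the founding AP-1 subunit (chromosome 1, 58776845 to 58784048, hg38, minus strand), had 557, 532 and 537 CPM in the ΔE8 libraries, 438, 431 and 415 in FL, 620, 614 and 597 in siTAF5, and 481, 454 and 452 in siNT. Every siTAF5 library was above every other library, and every FL library was below all others. JUNB, often an antagonist of JUN in growth control (chromosome 19, 12791486 to 12793315, plus strand), had 40.6, 39 and 38.3 CPM in ΔE8, 24.6, 23.3 and 23.5 in FL, 56, 53.1 and 52.2 in siTAF5, and 38.3, 32.6 and 34.4 in siNT. The order of the groups was that of JUN, and siNT replicate 1 was level with the lowest ΔE8 library to 3 digits. JUND, the member that is expressed most steadily in resting cells (chromosome 19, 18279694 to 18281622, minus strand), had 143, 145 and 146 CPM in ΔE8, 94.5, 99.9 and 84 in FL, 200, 180 and 183 in siTAF5, and 139, 117 and 113 in siNT. Again siTAF5 was highest and FL lowest, with no overlap of the FL libraries with any other group, and siNT replicate 1 was the highest of its group.

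FOS, the classical immediate early gene (chromosome 14, 75278826 to 75282230, plus strand), had 3.31, 3.4 and 2.83 CPM in ΔE8, 2.35, 2.49 and 2.41 in FL, 2.94, 3.4 and 3.33 in siTAF5, and 3.77, 3.39 and 2.95 in siNT. FL was below every other library, and the other 3 groups overlapped. FOSB (chromosome 19, 45467995 to 45475179, plus strand) had 4.09, 4.72 and 3.99 CPM in ΔE8, 3.84, 3.15 and 3.43 in FL, 3.64, 3.08 and 2.98 in siTAF5, and 2.74, 2.5 and 2.62 in siNT. ΔE8 was highest and siNT lowest, and FL overlapped siTAF5. These genes were shallow, with 104 to 205 counts a library for FOS and 133 to 265 for FOSB, so small differences were not detectable at this depth.

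FOSL1 encodes FRA1, a FOS protein without a classical activation domain that is often raised by ERK signalling (chromosome 11, 65892049 to 65900573, minus strand). It had 10.8, 11.8 and 11.6 CPM in ΔE8, 10.4, 11.3 and 11 in FL, 8.84, 7.81 and 7.39 in siTAF5, and 6.86, 5.42 and 6.63 in siNT. Both transgene groups were above siTAF5, which was above siNT, and ΔE8 and FL overlapped. FOSL2, which encodes FRA2 (chromosome 2, 28392448 to 28417317, plus strand), had 26.5, 27.3 and 27.2 CPM in ΔE8, 27, 26.8 and 26.9 in FL, 28.6, 28.1 and 29.8 in siTAF5, and 30.5, 29.8 and 29 in siNT. Its group means had the narrowest range of the 10 genes, 0.146 on the log2 scale, and its siTAF5 and siNT libraries overlapped.

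EGR1 (chromosome 5, 138465479 to 138469303, plus strand), whose promoter shows a pair of CArG boxes above, had 24.5, 28.6 and 27.7 CPM in ΔE8, 18.7, 19.4 and 19.6 in FL, 18.9, 17.3 and 18.2 in siTAF5, and 15.2, 14.7 and 15.7 in siNT. ΔE8 stood above all other libraries and siNT below all others, while FL and siTAF5 overlapped. DUSP1 (chromosome 5, 172768096 to 172771195, minus strand) had 53.8, 52.8 and 55.1 CPM in ΔE8, 39, 38.4 and 38.4 in FL, 55.7, 54.2 and 53.3 in siTAF5, and 53, 52 and 51.6 in siNT. FL was well below every other library, the siTAF5 libraries lay just above those of siNT, and ΔE8 overlapped both. IER5 (chromosome 1, 181088700 to 181092900, plus strand) had 72.4, 73.9 and 72.9 CPM in ΔE8, 60.8, 60.1 and 61.9 in FL, 85.7, 86.1 and 86 in siTAF5, and 81.2, 80.3 and 80.7 in siNT. No 2 groups overlapped for IER5, with siTAF5 highest and FL lowest.

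In siTAF5 against siNT, the comparison for depletion of TAF5, all 3 JUN genes were higher. Loss of TAF5, anything else the siRNA hits and any difference of line cannot be told apart. JUNB rose 1.53-fold (log2 0.62, SE 0.0462, edgeR adjusted p = 1.38e-09), JUND 1.53-fold (log2 0.61, SE 0.0605, edgeR adjusted p = 6.65e-08) and JUN 1.32-fold (log2 0.40, SE 0.0279, edgeR adjusted p = 4.95e-10). FOSL1 rose 1.27-fold, FOSB 1.23-fold, EGR1 1.19-fold and IER5 1.06-fold. In all, 7 of the 10 genes rose and 0 fell, against 49.7% of 19424 genes called over the whole table, 24.7% higher and 25% lower (edgeR quasi-likelihood test, Benjamini-Hochberg adjusted p under 0.05). The median log2 change of the 10 genes was 0.28, and that of all genes tested was 2e-04. For 8 of the 10 genes every siTAF5 library lay above every siNT library; 57.3% of all genes had no overlap in either direction. FOS (log2 -0.06, 95% interval -0.28 to 0.17), FOSL2 (-0.05, -0.12 to 0.03) and DUSP1 (0.06, -0.0025 to 0.12) did not pass. DUSP1 passed with scaling by library totals (log2 0.09, edgeR adjusted p = 0.0116), and IER5 missed with no filter on low counts (edgeR adjusted p = 0.0523).

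The FOSB call in this comparison (edgeR adjusted p = 0.0322) hung on single libraries. Without siTAF5 replicate 1 its log2 change was 0.20 (edgeR adjusted p = 0.195), and it also missed without siTAF5 replicate 2 (0.0501), siNT replicate 2 (0.1) or siNT replicate 3 (0.0653). The other 6 genes that rose kept the call without any single library. JUNB overlaps HOOK2, and FOSB overlaps ERCC1, each on the opposite strand. HOOK2 was higher along with JUNB, at 17.8 ± 0.401 CPM in siTAF5 and 14.2 ± 0.521 in siNT, and ERCC1 along with FOSB, at 53.5 ± 1.64 CPM in siTAF5 and 40 ± 2.61 in siNT. Whether counting used strand is not known from the labels, so reads of such partners cannot be told apart; FOSL2 and DUSP1 also have antisense partners.

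**Figure D2:**
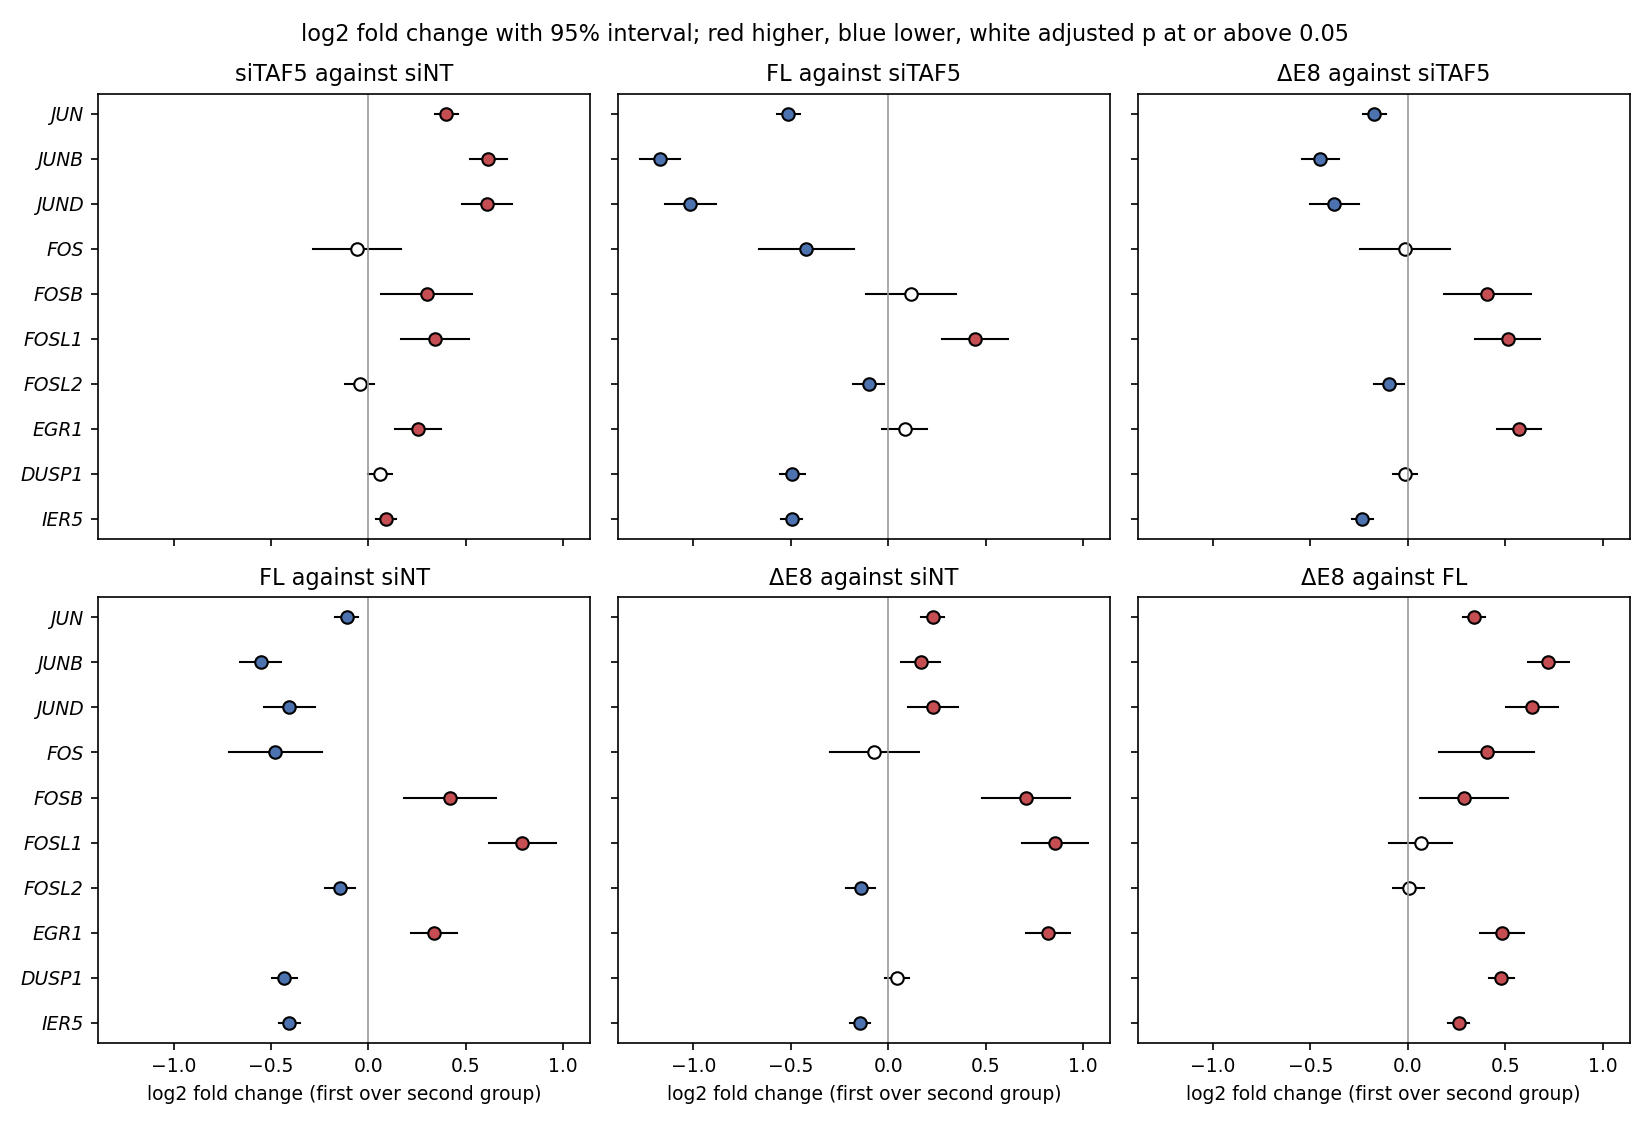
log2 fold change of each gene (first over second group) in the 6 comparisons, with 95% intervals from the edgeR fit; red is higher, blue lower, and white an adjusted p at or above 0.05. JUNB and JUND fall furthest in FL against siTAF5, at -1.17 and -1.02, and no gene lies to the left of 0 in ΔE8 against FL.

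With add-back of full-length TAF5, FL against siTAF5, the JUN genes, DUSP1, IER5 and FOS were lower and FOSL1 was higher. TAF5 CPM in FL stood at 263% of that in siNT, without adjustment for transcript length. The line of the siTAF5 cells is not stated, so transgene, TAF5 level and line cannot be told apart. JUNB fell 2.25-fold (log2 -1.17, SE 0.0495, edgeR adjusted p = 5.55e-13), JUND 2.02-fold (log2 -1.02, SE 0.0624, edgeR adjusted p = 7.8e-11) and JUN 1.43-fold (log2 -0.51, SE 0.0281, edgeR adjusted p = 1.66e-11). IER5 and DUSP1 each fell 1.41-fold (edgeR adjusted p = 6.38e-12 and 1.09e-10), and FOS fell 1.34-fold (0.00511). FOSL1 rose 1.36-fold (log2 0.45, SE 0.0805, edgeR adjusted p = 0.000106). With FOSL2, which fell 1.07-fold, 1 of 10 genes rose and 7 fell, against 48.8% of all genes called, 24.4% higher and 24.4% lower. Libraries did not overlap for 8 genes, against 56.3% of all genes. With scaling by library totals those shares came from 3748 higher and 5788 lower genes, in place of 4745 and 4732. The median log2 change was -0.46 in the 10 genes and -0.0052 in all genes.

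FOSB (log2 0.12, 95% interval -0.11 to 0.35) and EGR1 (0.08, -0.03 to 0.20) did not pass in FL against siTAF5. The FOSL2 call (edgeR adjusted p = 0.032) was lost without FL replicate 1 (0.0665), FL replicate 2 (0.0707), FL replicate 3 (0.0647), siTAF5 replicate 1 (0.0533) or siTAF5 replicate 3 (0.162). HOOK2 fell as JUNB did, with a log2 change of -0.49 (edgeR adjusted p = 2.28e-06). ERCC1 fell too (log2 -0.24, edgeR adjusted p = 0.00013), where FOSB was not called. This comparison shares the siTAF5 libraries with siTAF5 against siNT, so the direction in one is not independent of that in the other.

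With add-back of TAF5 without exon 8, ΔE8 against siTAF5, the JUN genes were lower by less than 1.4-fold, and EGR1, FOSL1 and FOSB were higher. TAF5 CPM in ΔE8 stood at 220% of that in siNT, again without adjustment for transcript length. Transgene, TAF5 level and line cannot be told apart here either. JUNB fell 1.365-fold (log2 -0.45, SE 0.0462, edgeR adjusted p = 2.86e-07), JUND 1.3-fold (log2 -0.38, edgeR adjusted p = 4.47e-05), IER5 1.175-fold (edgeR adjusted p = 4.13e-07) and JUN 1.13-fold (edgeR adjusted p = 5.38e-05). EGR1 rose 1.48-fold (log2 0.57, SE 0.0537, edgeR adjusted p = 1.07e-07), FOSL1 1.43-fold (log2 0.51, SE 0.0793, edgeR adjusted p = 3.24e-05) and FOSB 1.33-fold (log2 0.41, SE 0.107, edgeR adjusted p = 0.00437). Including FOSL2, 3 of 10 rose and 5 fell, against 20% and 20.6% of all genes, 40.6% together. Libraries did not overlap for 8 genes, against 49.9% of all genes. At least 1.2-fold changes were called for 5 of the 10 genes, against 15.8% of all genes. The median log2 change was -0.06 in the 10 genes and -0.0114 in all genes. DUSP1 (log2 -0.01, 95% interval -0.07 to 0.05) and FOS (-0.01, -0.25 to 0.22) did not pass. The overlapping genes did not pass, HOOK2 with a log2 change of -0.15 (edgeR adjusted p = 0.0569) beside the fall of JUNB, and ERCC1 with -0.06 (0.339) beside the rise of FOSB. The FOSL2 call (log2 -0.10, edgeR adjusted p = 0.0436) was lost without ΔE8 replicate 1 (0.205), 2 (0.0876) or 3 (0.0835), or without siTAF5 replicate 1 (0.0942), 2 (0.0562) or 3 (0.256), where the log2 change without the last was -0.06.

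Against siNT, the transgene groups stood on different sides for the JUN genes. In FL against siNT, JUNB (1.47-fold), JUND (1.325-fold), JUN (1.08-fold), FOS (1.39-fold), DUSP1 (1.35-fold), IER5 (1.32-fold) and FOSL2 (1.11-fold) were lower, and FOSL1 (1.73-fold), FOSB (1.34-fold) and EGR1 (1.26-fold) were higher. All 10 genes passed (edgeR adjusted p from 1.09e-10 for IER5 to 0.00345 for FOSB), 3 higher and 7 lower, against 27.8% and 26.8% of all genes, 54.6% together. No gene's libraries overlapped, against no overlap for 59.7% of all genes. In ΔE8 against siNT, FOSL1 (1.81-fold, edgeR adjusted p = 1.34e-08), EGR1 (1.77-fold, 7.35e-11), FOSB (1.63-fold, 9.63e-06), JUND (1.17-fold, 0.00259), JUN (1.17-fold, 5.08e-07) and JUNB (1.12-fold, 0.00455) were higher, and IER5 and FOSL2 were 1.1-fold lower. That made 6 of 10 higher and 2 lower, against 30.8% and 31.4% of all genes, 62.2% together. Libraries did not overlap for 8 genes, against 65.7% of all genes. FOS (log2 -0.07, 95% interval -0.30 to 0.16) and DUSP1 (0.05, -0.02 to 0.11) did not pass. EGR1, FOSL1 and FOSB, 3 of the 10 genes, were called with at least a 1.2-fold change in ΔE8 against siNT, against 40.7% of all genes. FL and ΔE8 share the siNT libraries in these 2 comparisons. In both, siRNA, transgene, TAF5 level and any difference of line cannot be told apart.

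The last comparison set TAF5 without exon 8 beside full-length TAF5, ΔE8 against FL. Levels of 8 of the 10 genes were higher in ΔE8 and 0 were lower, against 37% of all genes called, 17.3% higher and 19.7% lower. TAF5 CPM, not adjusted for the missing exon, and the doxycycline dose also differed between these groups. Their part cannot be told apart from that of exon 8. The median log2 difference was 0.37 in the 10 genes and -0.0089 in all genes. JUNB was 1.65-fold higher (log2 0.72, SE 0.0508, edgeR adjusted p = 1.62e-09), JUND 1.56-fold (log2 0.64, SE 0.0629, edgeR adjusted p = 1.39e-07) and JUN 1.265-fold (log2 0.34, SE 0.0281, edgeR adjusted p = 1.28e-08). EGR1 was 1.4-fold higher (log2 0.49, SE 0.0541, edgeR adjusted p = 6.75e-07), at 26.9 ± 2.12 CPM in ΔE8 and 19.2 ± 0.484 in FL. DUSP1 was 1.39-fold higher (edgeR adjusted p = 4.44e-10), IER5 1.2-fold (1.27e-07), FOS 1.32-fold (0.00945) and FOSB 1.22-fold (0.0402). Libraries did not overlap for these 8 genes, against 45.7% of all genes without overlap.

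FOSL1 differed by a log2 of 0.07 between ΔE8 and FL (95% interval -0.10 to 0.23) and FOSL2 by 0.0038 (-0.08 to 0.08), and neither passed. The 95% intervals of the other FOS genes were wider, 0.16 to 0.65 for FOS and 0.06 to 0.51 for FOSB. The FOSB call was lost without ΔE8 replicate 2 (edgeR adjusted p = 0.179), FL replicate 2 (0.14) or FL replicate 3 (0.0917). HOOK2 had 16.1 ± 1.04 CPM in ΔE8 and 12.6 ± 1.27 in FL, beside JUNB. ERCC1 had 51.4 ± 2.19 CPM in ΔE8 and 45.3 ± 1.73 in FL, beside FOSB. The 4 genes with TATAAA in the windows above, JUNB, FOSB, FOS and DUSP1, were all higher in ΔE8 than in FL. So were EGR1, JUN, JUND and IER5, whose windows lack that exact sequence. JUND and IER5 hold near matches. Any part of a TATA box in these differences was not tested. In siTAF5 against siNT the 4 genes with TATAAA split, with JUNB and FOSB higher and FOS and DUSP1 not called.

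The makeup of the JUN and FOS families was compared within each library from CPM per kb. JUN held 60.2% to 61.4% of the JUN family sum in ΔE8, 64.7% to 66.9% in FL, 55.9% to 57.9% in siTAF5 and 58.7% to 61.6% in siNT. Thus the share of JUN was highest in FL, where its own level was lowest, and JUNB took 8.56 ± 0.163% in ΔE8, 7.13 ± 0.286% in FL, 9.76 ± 0.0554% in siTAF5 and 8.92 ± 0.303% in siNT. FOSL1 held 51.3% to 53.3% of the FOS family sum in ΔE8, 51.5% to 54.1% in FL, 40.6% to 45.7% in siTAF5 and 33.7% to 39.3% in siNT. FOSL2 was the largest FOS family transcript per length in every siNT library (44.6% to 48.8%), and FOSL1 was the largest in every ΔE8 and FL library. FOS held 7.56% to 9.14% in ΔE8, 6.79% to 6.95% in FL, 8.86% to 10.8% in siTAF5 and 10.2% to 12.3% in siNT. The JUN family sum was 21.8 ± 1.02 times the FOS family sum in ΔE8, 16.8 ± 0.818 times in FL, 30.7 ± 0.203 times in siTAF5 and 24 ± 0.708 times in siNT. The ranges of that ratio did not overlap between any 2 groups. These are RNA shares, and they say nothing of the proteins. The shares in the JUN family and the ratio rest on the uncertain length of JUN for their size.

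**Figure D3:**
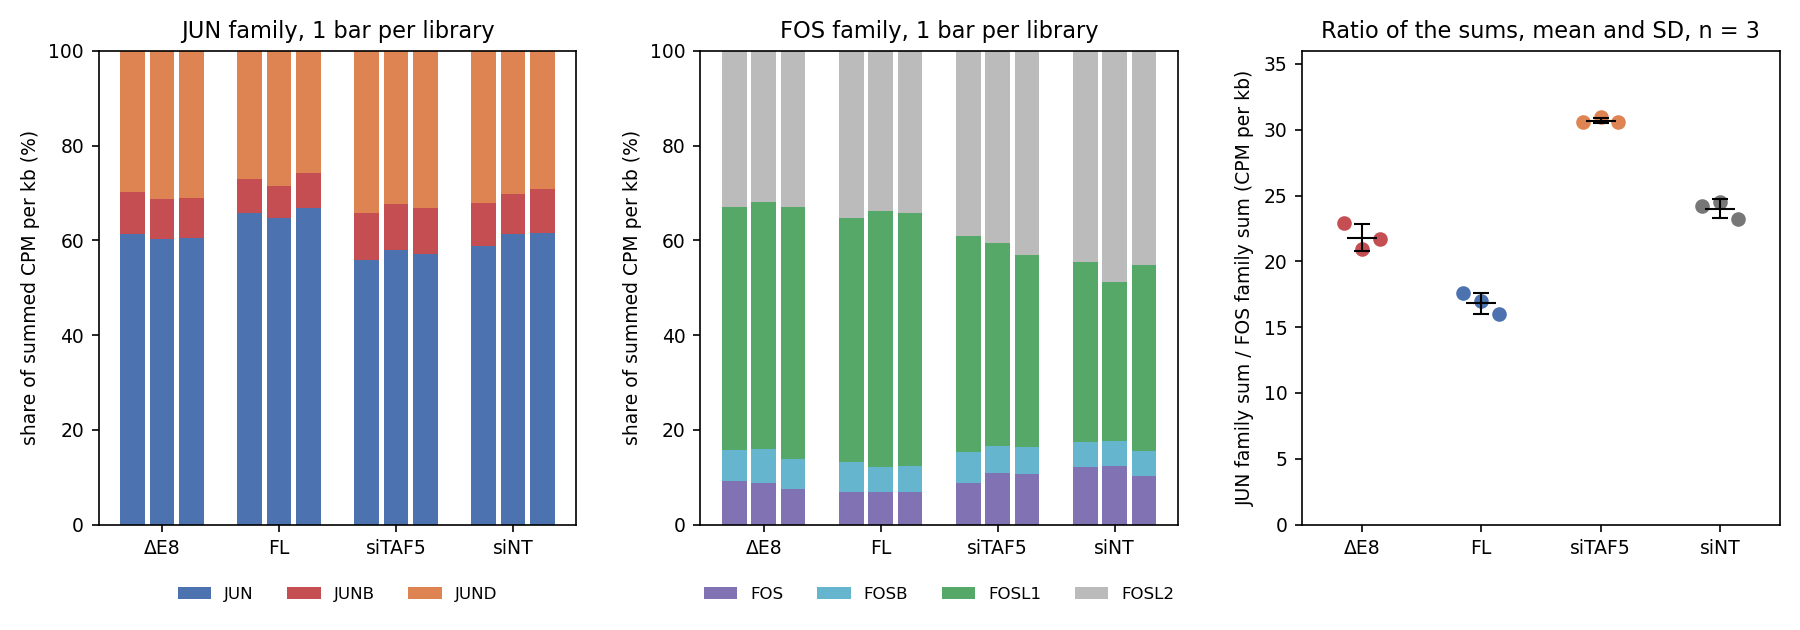
Share of each gene in the summed CPM per kb of the JUN family (left) and the FOS family (middle), 1 bar per library in ΔE8, FL, siTAF5 and siNT, and the ratio of the 2 sums (right; points are libraries, bars mean and SD). FOSL1 takes over 50% of the FOS family in ΔE8 and FL, and the ratio is lowest in FL at 16.8 and highest in siTAF5 at 30.7.

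Of 27 other immediate early genes tested, 7 rose and 6 fell in siTAF5 against siNT (median log2 -0.08), and 13 were higher and 5 lower in ΔE8 against FL (median 0.13). MCL1, a survival factor of the BCL2 family, rose 1.25-fold in siTAF5 (228 ± 3.63 CPM, against 182 ± 1.86 in siNT), whereas the nuclear receptor NR4A1 fell 1.45-fold and the pseudokinase TRIB1 1.29-fold (edgeR adjusted p from 4.48e-09 to 1.09e-08). In ΔE8 against FL, ZFP36, which promotes decay of AU-rich mRNAs, was 1.38-fold higher and MCL1 1.17-fold higher, and TRIB1 was 1.58-fold lower (edgeR adjusted p from 1.61e-11 to 1.51e-06). Over all genes 24.7% were higher and 25% lower in siTAF5 against siNT, and 17.3% and 19.7% in ΔE8 against FL, with medians of 2e-04 and -0.0089, and the counts of this and the following lists are to be read against these shares.

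Of 12 dimer partners of AP-1 tested, 2 rose and 5 fell in siTAF5 against siNT (median -0.08), and 2 were higher and 2 lower in ΔE8 against FL (median -0.09). JDP2, a repressor that pairs with JUN, fell 1.87-fold in siTAF5 (2.74 ± 0.142 CPM, against 5.11 ± 0.309 in siNT), the small MAF protein MAFK 1.37-fold and CREB5 1.32-fold (edgeR adjusted p from 5.35e-09 to 1.62e-07). JDP2 was also 1.59-fold lower in ΔE8 than in FL and CREB5 1.13-fold lower, while the stress factor ATF3 was 1.24-fold higher (111 ± 1.49 CPM in ΔE8, against 90 ± 2.32 in FL, edgeR adjusted p = 9.32e-08).

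Of 18 ERK feedback genes and EGR corepressors, 1 rose and 8 fell in siTAF5 against siNT (median -0.14), and 3 were higher and 9 lower in ΔE8 against FL (median -0.16). The EGFR inhibitor ERRFI1 rose 1.2-fold in siTAF5, the JNK and p38 phosphatase DUSP16 fell 1.13-fold and the ERK phosphatase DUSP5 1.2-fold (edgeR adjusted p from 2.26e-06 to 3.98e-05). ERRFI1 was 1.2-fold higher in ΔE8 than in FL, and the ERK phosphatases DUSP6 and DUSP7 were 1.3-fold and 1.17-fold lower (edgeR adjusted p from 8.05e-06 to 0.000329). DUSP1, a member of the same phosphatase family, was higher in ΔE8 than in FL.

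Of 22 MAP kinases and upstream factors, 8 rose and 4 fell in siTAF5 against siNT (median -0.02), and 8 were higher and 4 lower in ΔE8 against FL (median 0.07). The JNK activator MAP2K7 fell 1.37-fold and the ribosomal S6 kinase RPS6KA2 1.44-fold in siTAF5 (edgeR adjusted p = 1.49e-09 and 1.64e-07). In ΔE8 against FL, MAP2K7 was 1.2-fold lower and the SRF coactivator MRTFB 1.153-fold higher (edgeR adjusted p = 4.79e-06 and 7.76e-05).

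Of 13 reported AP-1 target genes tested, 2 rose and 5 fell in siTAF5 against siNT (median -0.15), and 1 was higher and 4 lower in ΔE8 against FL (median -0.03), beside 49.7% and 37% of all genes called in either direction. VIM, which is also among the HEK293 markers, rose 1.255-fold in siTAF5 and was 1.29-fold higher in ΔE8 than in FL. The hyaluronan receptor CD44 fell 1.52-fold in siTAF5 and was 1.36-fold lower in ΔE8 than in FL, the urokinase receptor PLAUR fell 1.56-fold in siTAF5, and the growth factor HBEGF was 1.178-fold lower in ΔE8 (edgeR adjusted p from 2.05e-10 to 0.00302 for ΔE8 against FL and from 3.89e-10 to 2.07e-07 for siTAF5 against siNT). Of 7 heat shock genes, 4 rose and 1 fell in siTAF5 (median 0.25), and 3 were higher and 3 lower in ΔE8 against FL (median -0.0076). HSPA1B rose 1.43-fold and HSP90AA1 1.19-fold in siTAF5, where HSPB1 fell 1.42-fold, and in ΔE8 against FL HSPA1B was 1.45-fold, HSP90AA1 1.14-fold and HSPA1A 1.57-fold higher (edgeR adjusted p from 4.05e-12 to 0.000201). HSPA1A and HSPA1B are near-identical copies, so the split of reads between them is uncertain.

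**Figure D4:**
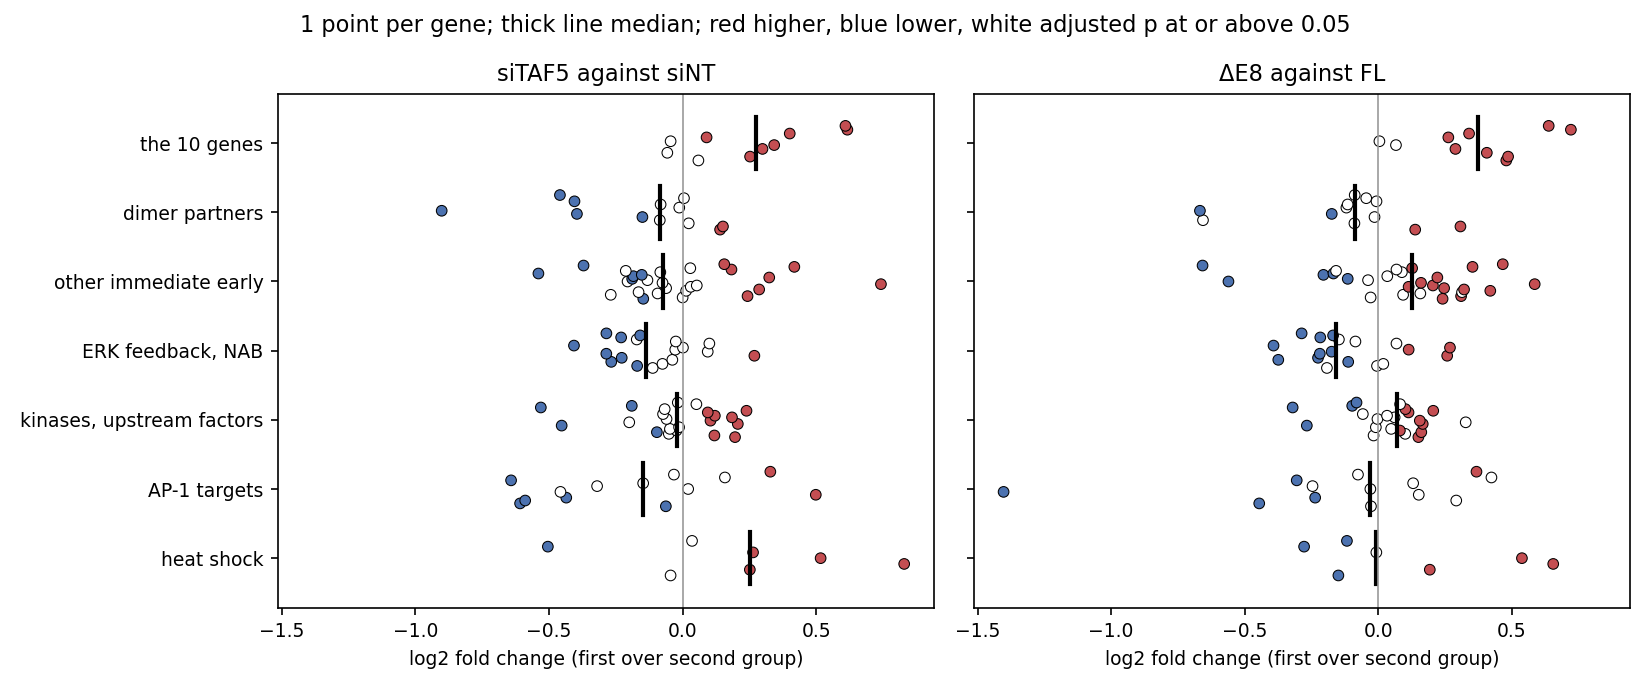
log2 fold change of each tested gene of the 10 genes and of the 6 pathway lists in siTAF5 against siNT (left) and ΔE8 against FL (right); points are genes, thick lines list medians, red higher, blue lower and white an adjusted p at or above 0.05. The 10 genes have medians of 0.28 and 0.37, while the ERK feedback list has medians of -0.14 and -0.16.

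Genes with the nearest pattern were sought for the 3 members with the widest range of group means, JUNB (1.17 on the log2 scale), JUND (1.02) and FOSL1 (0.858). Likeness was the mean absolute difference over the 12 libraries between log2 levels centred on their means, among 12314 genes whose log2 CPM averaged 2 or more. Nearest to JUNB were SOX4 (0.0658), JUND (0.0688) and PAQR8 (0.0822), against a median of 0.374 over all genes compared. Nearest to JUND were NANOS1 (0.0659), JUNB (0.0688) and HES4 (0.075), so the paralogs JUNB and JUND were each among the 3 nearest of the other. SOX4, a transcription factor of progenitor cells, had 378 ± 6.84 CPM in ΔE8, 249 ± 13.3 in FL, 569 ± 2.96 in siTAF5 and 342 ± 13.5 in siNT. Nearest to FOSL1 were ZNF408 (0.0824), AP4S1 (0.0876) and TNFRSF12A (0.0902), the last with 37.6 ± 2.65 CPM in ΔE8, 35 ± 0.841 in FL, 23.5 ± 0.771 in siTAF5 and 21.9 ± 1.63 in siNT. These lists are descriptions of 12 libraries and carry no test.

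**Figure D5:**
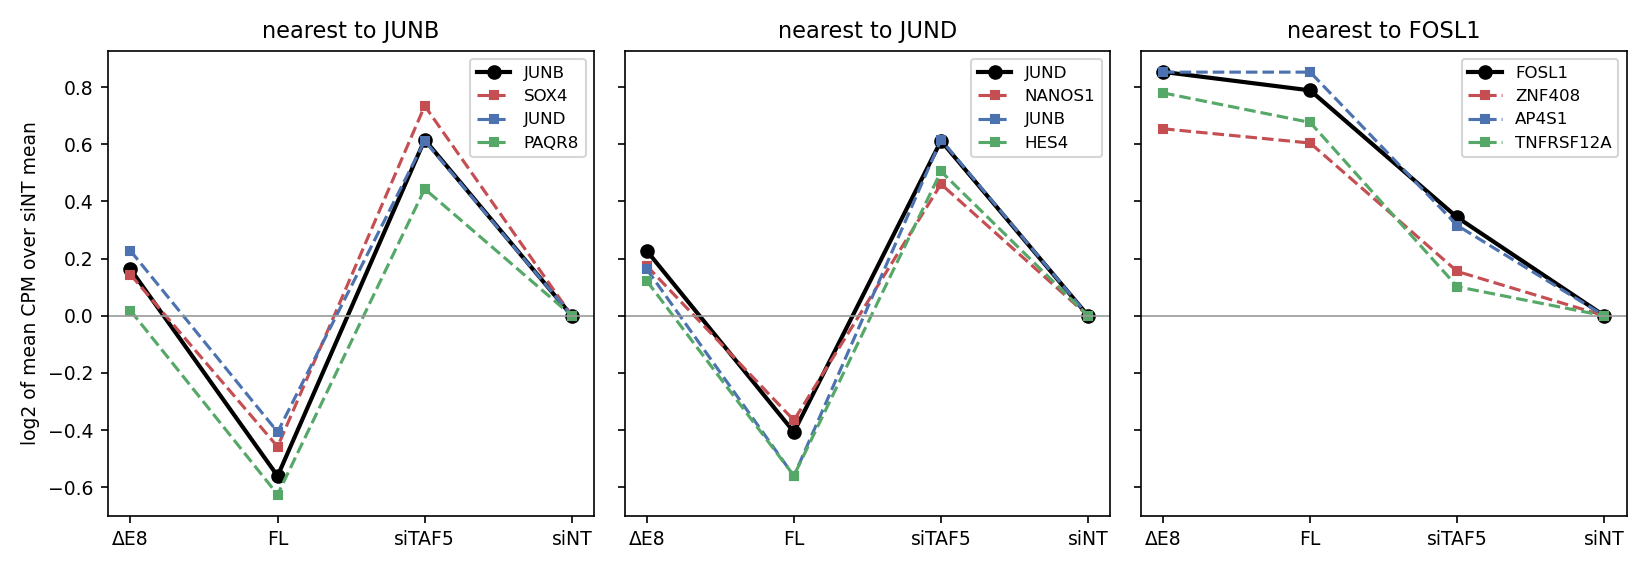
log2 of the mean CPM in ΔE8, FL, siTAF5 and siNT over the siNT mean for JUNB, JUND and FOSL1 (black) and the 3 genes nearest to each (coloured). JUNB, JUND, SOX4, PAQR8, NANOS1 and HES4 peak in siTAF5 and are lowest in FL, while FOSL1 and its neighbours are highest in ΔE8 and FL.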

How the data were processed

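Polyadenylated RNA of 12 libraries was sequenced with a stranded kit, per the labels' protocols. The authors deposited expected counts: the values are unnormalized estimates for each gene, judged from the file (45.1% of entries not whole at a tolerance of 1e-06). Build hg38 and the tools STAR 2.7.0f, cutadapt 1.18, DESeq2 and Partek 10.0.23.0531 appear, with no roles, per the submitters' processing notes. The quantifier, the gene models and any use of strand in counting are not stated. Since the design had assumed counts, the estimates were rounded, which moved no library total by more than 91.27. JUN, JUNB, JUND and FOSL2 were not whole in 10 libraries and FOSL1 in 5, so part of their counts was assigned by estimation.

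Tests ran in edgeR 4.0.16 (R 4.3.3). After filterByExpr (minimum count 10) 19424 genes remained; TMM factors scaled the libraries, and 1 quasi-likelihood fit held all 12 libraries and a term for each group. Alternatives, with DESeq2 1.42.0 and limma 3.58.1 among them, are given in the closing section. The 6 comparisons were two-sided, with Benjamini-Hochberg adjustment over all genes tested and a threshold of 0.05. The code was tested on simulated data. The SE of a log2 change is its size over the square root of F, and levels are CPM. No spike-in was named, so a change in RNA per cell is not visible, and in bulk RNA fewer cells of a type and less RNA per cell cannot be told apart. No label says that replicates were separate cultures, so p-values measure the spread between these libraries, which may be technical. Replicate pairs differed by more than sampling noise, chi-square over degrees of freedom being 2.51 to 4.79.

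The members and lists were chosen with earlier results of these data known. All 10 members were named in every comparison, and in each pathway list up to 3 genes of lowest adjusted p were named for siTAF5 against siNT, and likewise for ΔE8 against FL. A gene that this rule names is not reported here. Of 104 list entries, 103 were found by name, BATF being the exception. HOOK2 and ERCC1 were named after their values were seen, as genes overlapping members. Exon lengths are merged exons of GENCODE release 29, which held 95.2% of the table's gene IDs, and coordinates are the table's, with 1 base taken from the stop.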

Additional observations from a re-analysis of the deposited data

Results flagged for a closer look

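The change over siTAF5 differed between ΔE8 and FL for 4 genes that passed in 1 of the 2 add-back comparisons and not in the other. The difference itself was tested as ΔE8 against FL in the edgeR fit, and its size was 0.49 on the log2 scale for EGR1, 0.48 for DUSP1, 0.41 for FOS and 0.29 for FOSB. EGR1 and FOSB rose in ΔE8 over siTAF5 and did not pass in FL over siTAF5, while FOS and DUSP1 fell in FL over siTAF5 and did not pass in ΔE8 over siTAF5. Each of the 4 was higher in all 3 ΔE8 libraries than in all 3 FL libraries. This rule leaves out JUNB (0.72), JUND (0.64), JUN (0.34) and IER5 (0.26). They were lower than siTAF5 in both add-back groups and also differed between ΔE8 and FL. The FOSB difference lost its call in 4 of 14 alternatives. TAF5 CPM, not adjusted for length, and doxycycline dose also differed between ΔE8 and FL, and cannot be told apart from exon 8. Groups of 3 are too small for a check of single outlying libraries.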

How the results depend on the processing

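Of 60 gene and comparison pairs, 49 were called and 11 were not. Over 14 alternatives each, 659 of 686 refits kept the call and the direction, 27 lost the call, all for FOSB, FOSL2 or IER5, and 0 reversed. Of the 11 not called, DUSP1 in siTAF5 against siNT passed under 1 alternative. FOSL2 lost its call in 10 of 14 alternatives in ΔE8 against siTAF5 (edgeR or DESeq2 adjusted p 0.0505 to 0.256) and in 6 in FL against siTAF5 (0.0533 to 0.162). FOSB lost it in 6 in siTAF5 against siNT (0.0501 to 0.195) and in 4 in ΔE8 against FL (0.0798 to 0.179). With a minimum change of 1.2-fold, an alternative chosen after seeing the data, the genes called were 3 in place of 8 in ΔE8 against siNT and 5 in place of 8 in ΔE8 against siTAF5. Over all genes, the deviations of same-numbered replicates had small correlations, -0.051 to 0.051 over 18 pairs. Even so, 10 of 12 libraries correlated best with their own number. Replicate 1 was the highest of its group in all 4 groups for JUN and JUNB. With the replicate block, more genes were called in all 6 comparisons. The counts were 9787 in siTAF5 against siNT in place of 9650, 8092 in ΔE8 against siTAF5 in place of 7884, and 7409 in ΔE8 against FL in place of 7178. FOSL2 in ΔE8 against siTAF5 (log2 -0.10, edgeR adjusted p = 0.0505) was the 1 call among the 10 genes that changed. The block lowered the adjusted p of JUN, siTAF5 against siNT, to 2.34e-11, in place of 4.95e-10. Scaling by library totals also moved the split of all genes to 4072 higher and 3184 lower in ΔE8 against FL, in place of 3359 and 3819, and to 5662 and 4140 in siTAF5 against siNT, in place of 4802 and 4848. Depth limits FOS (at most 205 counts in a library) and FOSB (at most 265).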

Other observations

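Genes without an intron were looked at after the values of JUN, JUNB, JUND and IER5 had been seen, and no test was made. Of 363 protein-coding genes with 1 merged exon other than histone genes and the 10 genes above, 89 rose and 83 fell in siTAF5 against siNT (median log2 0.004), and 54 were higher and 75 lower in ΔE8 against FL (median -0.036). Of 35 histone genes with 1 merged exon, 19 rose and 0 fell in siTAF5 against siNT (median 0.69), and 15 were higher and 0 lower in ΔE8 against FL (median 0.57). The libraries hold polyadenylated RNA, so histone transcripts without a poly(A) tail would be missed, and these counts do not describe total histone mRNA. Of 14179 protein-coding genes with introns, 3830 rose and 4372 fell in siTAF5 against siNT (median -0.018), and 2808 were higher and 3445 lower in ΔE8 against FL (median -0.018). Among the genes nearest in pattern to JUNB and JUND, SOX4 and NANOS1 also have 1 merged exon, HES4 has 2 and PAQR8 has 5.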
